A study of Mus musculus with 45 samples.

Results

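Solute carriers are membrane proteins that move small molecules, such as amino acids, sugars, organic acids, metal ions, vitamins and nucleotides, across the cell surface and the membranes of organelles. Their genes carry the symbol Slc, a family number, the letter a and a member number, and members of a family often share a kind of substrate. The genes described here are the mouse genes with such a symbol that reached 5 CPM (a gene's counts in proportion to all gene counts of its library, scaled to a total of 1000000) in at least 2 of 45 RNA-seq libraries. Of 332 genes with a symbol of this form, 162 passed and 170 did not, among 37991 genes counted, of which 11361 reached the same level. A further 60 genes with an Slc symbol of another form were not members.

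The members fell into 41 of 48 families. The mitochondrial carriers of family Slc25 were the most numerous with 33 members, followed by the zinc importers of Slc39 with 10. The cationic and heteromeric amino acid transporters of Slc7 and the monocarboxylate family Slc16 had 8 each, the neutral amino acid transporters of Slc38 had 7, and the glucose transporters of Slc2 and the zinc exporters of Slc30 had 6 each. The members were chosen by their measured CPM in these libraries, so that level is a description here. In the second-highest library Slc25a53, Slc25a42 and Slc45a3 lay just inside the threshold with 5.17, 5.63 and 5.67 CPM, and Slc14a1, Slc22a21 and Slc2a13 just outside with 4.83, 4.58 and 4.26 CPM. All 45 libraries reached 5 CPM for 123 members, while 10 or fewer did for 5. The rule was met only through p53KO libraries for 5 members (Slc2a4, Slc4a8, Slc6a15, Slc25a53 and Slc45a3) and only through WT libraries for 2 (Slc5a7 and Slc25a42). Slc45a3, Slc16a9, Slc25a42 and Slc25a53 reached the level in no 0 h library, and Slc2a4, Slc4a8, Slc5a7 and Slc16a4 in no library at 3 or 8 h. Where such a member differs between these groups, its difference follows in part from how it was chosen.

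The libraries came from primary fibroblasts of C57BL/6 mouse embryos (MEFs), the cells that build connective tissue. They were wild type (WT) or p53-/- (p53KO), lacking the transcription factor that halts or kills damaged cells. All cells, the 0 h controls included, had been without serum overnight. They received 1 of 3 stimuli for 0, 0.5, 1, 3 or 8 h, and each stimulus had its own 0 h libraries. LPS, lipopolysaccharide from the outer membrane of bacteria, was given at 100 ng/ml. The inflammatory cytokines IL-1b (interleukin-1 beta) and TNF (tumour necrosis factor) were each given at 10 ng/ml. Every WT group held 1 library, which gives no measure of its own spread, and every p53KO group held 2. The titles mark these 2 as KO-1 and KO-2 and number them as replicates, and they are called lines here. The labels do not say whether they are separate lines or came from separate embryos. The p-values therefore measure only the spread between these libraries.

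Gene counts totalled 5619870 to 15355994 per library (median 9347770), and the members took 0.945 to 1.12% of them. Trp53, the gene of p53, lay at 159 to 296 CPM in WT, 53.03 to 88.6 CPM in KO-1 and 54.8 to 86.1 CPM in KO-2. The fibroblast collagen Col1a1 was at 8093 CPM or more in every library. Macrophage markers were present at a low level: 10 of them summed to 390.5 to 564 CPM in WT, 354 to 513 CPM in KO-1 and 287 to 452 CPM in KO-2, and none was at 0 in all libraries. The endothelial marker Pecam1 (0 to 1.44 CPM) and the epithelial marker Epcam (0 to 0.724 CPM) were at or near 0. Not all markers of these types were: the endothelial Kdr lay at 5.32 to 22.2 CPM and the epithelial Cldn4 at 0.104 to 10.4 CPM. The 5 endothelial markers summed to 7.87 to 13.9 CPM in WT, 10.4 to 22.8 CPM in KO-1 and 13.2 to 23.5 CPM in KO-2. The 5 epithelial ones summed to 1.15 to 8.09, 3.15 to 13.9 and 2.89 to 13.1 CPM. In such bulk samples, fewer cells of a type and less RNA per cell cannot be told apart.

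RefSeq promoter windows of build GRCm38.p6 were given for 123 of the 162 members, and for 9 of the 14 members that rose at least 2-fold at 3 or 8 h. Slc16a9, one of the 9, reached 5 CPM only in 2 libraries at 3 h of LPS, so its rise there follows from the choice of members and its promoter is not shown. The 250 bases before the transcription start are printed for the 3 others with the largest rise among those whose window held a match to a motif named below. That each printed promoter holds a match thus follows from this choice. The promoters are shown because all 3 stimuli are known to activate the transcription factor NF-kB. A loose form of its binding motif, the kB motif, was searched on both strands, and capitals mark the matches, some of which overlap.
Slc30a1, chr1:191906531-191906780, plus strand: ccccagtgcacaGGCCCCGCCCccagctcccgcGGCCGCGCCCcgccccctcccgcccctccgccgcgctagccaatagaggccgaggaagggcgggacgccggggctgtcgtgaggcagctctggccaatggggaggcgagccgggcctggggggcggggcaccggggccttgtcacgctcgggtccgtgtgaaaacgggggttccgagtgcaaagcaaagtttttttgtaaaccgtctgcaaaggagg
Slc2a6, chr2:27027999-27028248, minus strand: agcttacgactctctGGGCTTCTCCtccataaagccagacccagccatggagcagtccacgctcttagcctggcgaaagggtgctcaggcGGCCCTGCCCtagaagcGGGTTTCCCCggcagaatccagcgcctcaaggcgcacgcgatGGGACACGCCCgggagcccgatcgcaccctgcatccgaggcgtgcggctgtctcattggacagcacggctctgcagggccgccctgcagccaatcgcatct
Slc20a1, chr2:129198523-129198772, plus strand: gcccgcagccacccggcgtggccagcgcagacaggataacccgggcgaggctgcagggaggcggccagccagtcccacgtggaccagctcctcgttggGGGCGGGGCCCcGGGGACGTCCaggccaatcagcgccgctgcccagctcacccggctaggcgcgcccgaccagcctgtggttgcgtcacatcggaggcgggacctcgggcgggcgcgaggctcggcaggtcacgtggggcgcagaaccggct
Slc30a1 held 2 matches, which began 238 and 217 bases before the start. Slc2a6 held 5, the nearest of which began 100 bases before it. Slc20a1 held 3, from 152 bases, besides 1 match in a second window. The kB motif occurred in 45.8% of all 32851 windows of this length and in 61.2% of the 170 windows of members. The interferon-stimulated response element occurred in 2.98% of all windows and in 2 of the members' windows, and the amino acid response element in 3.45% and in 5. The members were chosen by level, while all windows include those of genes at any level. No share was computed for genes at the members' level or for windows of like base composition. These shares are therefore a description and no measure of enrichment. Slc7a2, Slc15a3, Slc11a2 and Slc25a37, which also rose 2-fold, had no entry.

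Each time was compared with 0 h of the same stimulus in p53KO by edgeR's quasi-likelihood test over 13851 genes, and a gene was called at a Benjamini-Hochberg adjusted p under 0.05. Changes are log2 differences with their standard error (SE). At 3 h of IL-1b 81 members were called, or 50% of the members beside 42.7% of all genes tested and 48.6% of genes at the members' level. Of them 45 were higher (21% of all genes) and 36 lower (21.8%). At 3 h of TNF 65 were called (36% of all genes and 41.3% at the level), 38 higher (18.4% of all genes) and 27 lower (17.6%). At 3 h of LPS 84 were called (44.1% and 49.8%), 41 higher (21.9%) and 43 lower (22.1%). The members' shares lay near those of other genes at the same level.

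At 8 h 50 members were called after IL-1b (24.4% of all genes and 27.8% at the level), 31 higher (12.5% of all genes) and 19 lower (11.8%). After TNF the count was 62 (28.6% and 32.8%), with 34 higher (14.5%) and 28 lower (14.1%). After LPS it was 76 (34.2% and 37.9%), with 45 higher (17%) and 31 lower (17.2%). Without the 8 members that reached the level in no 0 h library or in none at 3 or 8 h, a choice made after seeing the data, the counts over the other 154 were 77, 62 and 80 at 3 h and 48, 60 and 71 at 8 h of IL-1b, TNF and LPS. The medians of the members' changes ran from -0.0506 at 3 h of LPS to 0.0547 at 8 h of IL-1b, and those of all genes from -0.0248 to -0.00149. The TNF count at 8 h became 31 without the KO-1 library at 8 h and 40 without the KO-2 library at 0 h.

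**Figure D1:**
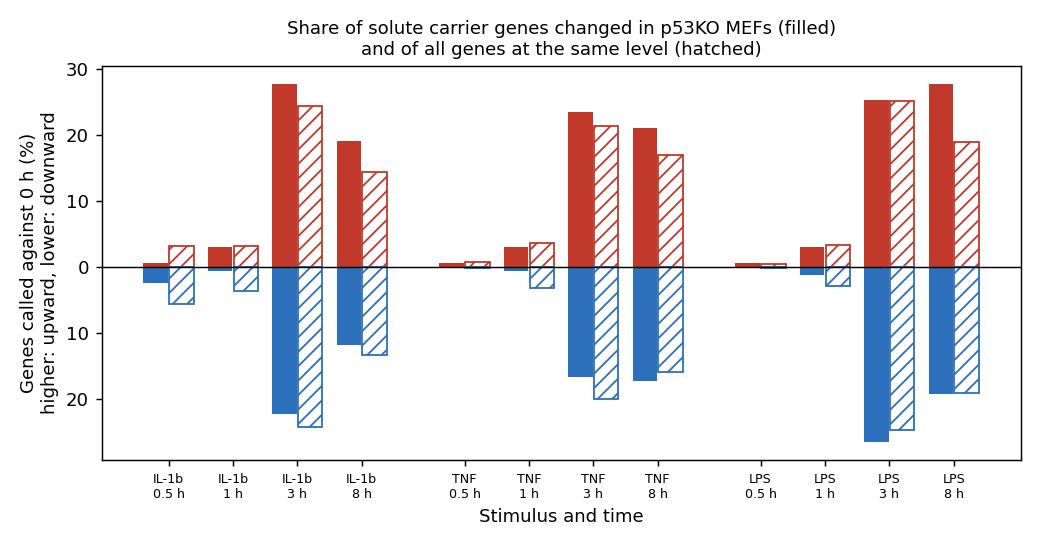
Percent of the 162 solute carrier genes called higher (upward) or lower (downward) against 0 h in p53KO MEFs (filled bars), beside the percent of the 11361 genes at the same level (hatched bars), for each stimulus and time. Few genes of either kind were called at 0.5 and 1 h, and the filled and hatched bars are of similar height at 3 h.

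Across the stimuli, 31 members were higher after all 3 at 3 h (13.9% of all genes) and 18 were lower (13.1%), and at 8 h 22 were higher (6.92%) and 15 lower (6.45%). Higher calls after all 3 stimuli stood at both 3 and 8 h for 15 members (9.26%, beside 4.39% of all genes), and lower calls for 6 (3.70%, beside 2.87%). Slc24a3 was the 1 member called higher after one stimulus and lower after another, at 8 h (0.617%, beside 0.368% of all genes). Its lower call, after TNF, ended without KO-2 at 0 h (adjusted p = 0.186) or KO-1 at 8 h (adjusted p = 0.216). Between 3 and 8 h of a stimulus the call turned direction for 4 members (2.47%, beside 3.30% of all genes): Slc30a1 from higher to lower, and Slc39a10, Slc37a4 and Slc25a51 from lower to higher.

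**Figure D2:**
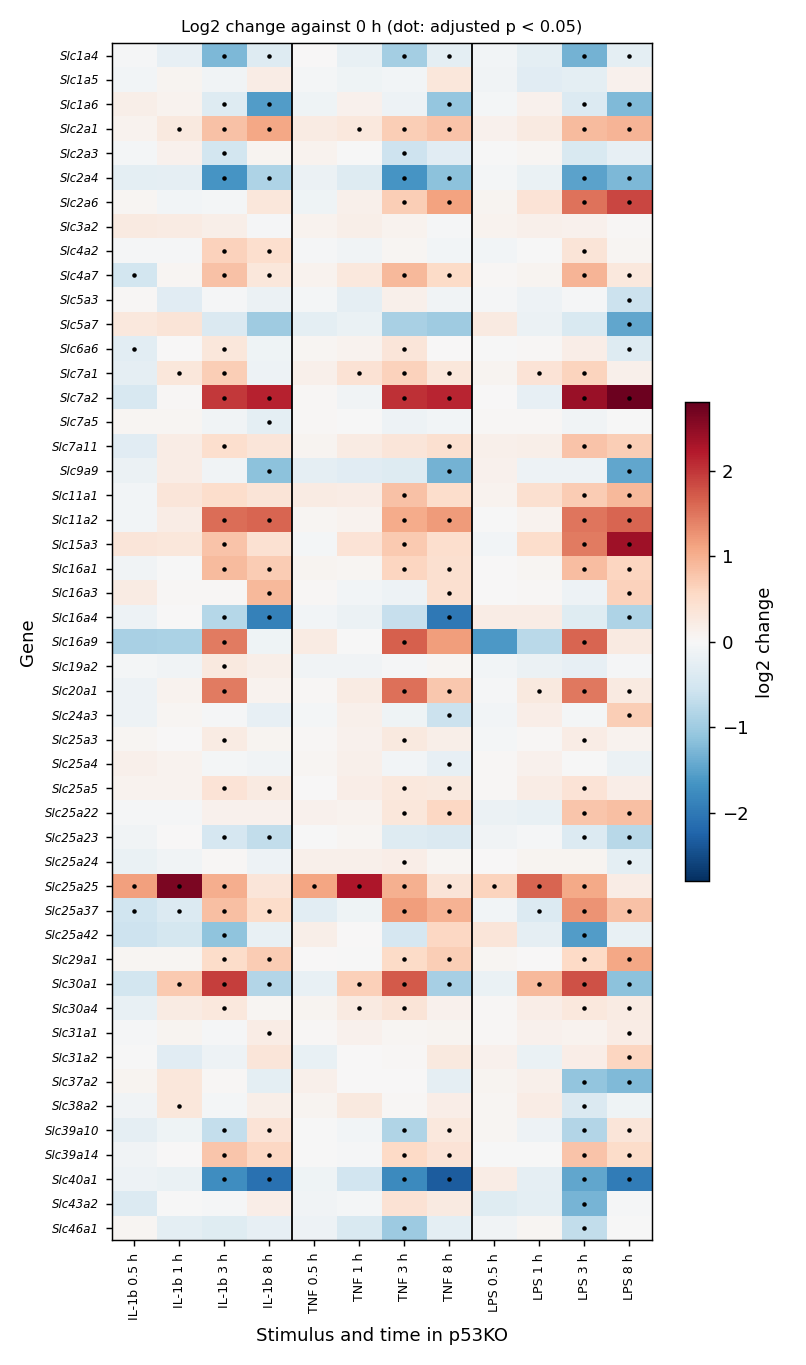
Log2 change against 0 h in p53KO (colour) for 49 members named by rule (rows), at 0.5, 1, 3 and 8 h of IL-1b, TNF and LPS (columns). Dots mark an adjusted p under 0.05. Slc7a2, Slc11a2, Slc2a1 and Slc39a14 are above 0 at 3 and 8 h of all 3 stimuli, Slc40a1 and Slc2a4 are below 0, and Slc30a1 is above 0 at 3 h and below at 8 h.

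Few members moved before 3 h. At 0.5 h 1 member was called after TNF (0.751% of all genes) and 1 after LPS (0.527%), which was Slc25a25 in both, and 5 after IL-1b (7.39%), a count that became 18 with the line as a block. At 1 h of LPS 7 were called (5.31%), at 1 h of TNF 6 (5.85%) and at 1 h of IL-1b 6 (5.94%), and with the line as a block the IL-1b count became 11 and the TNF count 10. These counts fell to as few as 2, 1 and 2 when single libraries were left out.

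Slc25a25, a calcium-regulated mitochondrial carrier of adenine nucleotides and phosphate (chr2:32270007-32306965 in mm9, the build of all member positions here), changed first. After IL-1b its level was 29.8 and 27.9 CPM in KO-1 and KO-2 at 0 h, 57.3 and 69.5 CPM at 0.5 h, 156 and 188 CPM at 1 h and 47.3 and 55.6 CPM at 3 h. In WT it went from 32.5 to 71.2 and then 137 CPM over the first 3 times. The 0.5 and 1 h libraries lay above all 0 h libraries in both genotypes. At 1 h the changes after IL-1b, TNF and LPS were 2.64, 2.25 and 1.62 (SE 0.12 each). Those at 0.5 h were 1.16, 1.10 and 0.61 (SE 0.12 to 0.13), and the LPS call ended without KO-2 at 0.5 h (adjusted p = 0.407) or KO-1 at 0 h (adjusted p = 0.376).

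Lower at 0.5 h of IL-1b were, among others, Slc25a37 (-0.56, SE 0.09), an iron importer of mitochondria, Slc4a7 (-0.52, SE 0.10), a sodium bicarbonate cotransporter, and Slc6a6 (-0.31, SE 0.08), the taurine importer. The Slc4a7 and Slc6a6 calls ended without KO-2 at 0.5 h (adjusted p = 0.0715 and 0.245) or without KO-1 at 0 h (adjusted p = 0.062 and 0.247). At this time the change of all genes ran with exon length, with Spearman's rho across 9655 genes of -0.53 in KO-1, -0.56 in KO-2 and -0.29 in WT. Its part in these lower values was not tested. Such trends were also present elsewhere, for example at 1 h of TNF with -0.40 in KO-1 but 0.30 in KO-2.

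Among the transporters of amino acids, 30 members, 8 were higher and 6 lower at 3 h of IL-1b, 7 and 3 at 3 h of TNF, and 6 and 9 at 3 h of LPS, with medians of -0.01, 0.02 and -0.09. In family Slc7, 5, 4 and 5 of 8 members were higher at 3 h and none was lower, while the others were not called, with medians of 0.49, 0.36 and 0.54. In family Slc38, importers of glutamine and other small neutral amino acids, none of 7 was higher and 2, 1 and 4 were lower, with medians of -0.06, -0.02 and -0.39. Of all genes at the members' level 24.4, 21.3 and 25.1% were higher and 24.2, 20 and 24.7% lower at 3 h. At 8 h 14.4, 17 and 18.9% were higher and 13.3, 15.9 and 19% lower. The counts of families and lists here and below stand beside these shares, and no difference from them was tested.

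Slc7a2, an importer of arginine, lysine and ornithine (chr8:41947750-42007662), had the largest rise of all members at 3 and at 8 h of each stimulus. After LPS it went from 39.02 and 45.97 CPM in KO-1 and KO-2 to 165 and 227 CPM at 3 h and 223 and 304 CPM at 8 h. In WT it went from 25.8 to 318 and 315 CPM, so the 3 lines all stood apart from their 0 h libraries. The changes were 1.99, 2.05 and 2.41 (SE 0.26 to 0.27) at 3 h and 2.15, 2.12 and 2.73 (SE 0.26 to 0.27) at 8 h of IL-1b, TNF and LPS. The excess at 8 h of LPS over the mean of the cytokines was 0.60 (SE 0.31), with an adjusted p of 0.397 and of 0.00649 with the line as a block.

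Slc7a1, another importer of cationic amino acids, went from 182 and 184 CPM to 252 and 267 CPM at 3 h of IL-1b in p53KO, while WT went from 186 to 147 CPM. Its changes at 3 h were 0.69, 0.65 and 0.63 (SE 0.09 each), and those at 1 h were 0.32, 0.40 and 0.39 (SE 0.09 each), each of which lost its call without at least 2 of the 4 libraries compared, for example without KO-2 at 1 h of IL-1b (adjusted p = 0.21), KO-2 at 1 h of TNF (adjusted p = 0.0857) and KO-2 at 0 h of LPS (adjusted p = 0.0947). Slc7a11, the cystine importer that feeds glutathione synthesis, went from 38.1 and 37.4 CPM to 58.1 and 56.5 CPM at 3 h and 52.97 and 61.1 CPM at 8 h of LPS. It rose by 0.81 (SE 0.14) and 0.70 (SE 0.14). Of 7 listed genes of glutathione synthesis, 3, 3 and 4 were higher at 3 h of IL-1b, TNF and LPS and none was lower (medians 0.24, 0.24 and 0.30), with Gclc, the catalytic subunit of the first enzyme, at 0.66, 0.78 and 0.48.

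Slc1a4, an exchanger of alanine, serine and cysteine (chr11:20202183-20232716), fell at 3 h. After LPS it went from 109 and 120.3 CPM to 39.7 and 39.9 CPM at 3 h and 79.3 and 96.1 CPM at 8 h in p53KO, and from 94.1 to 33.04 and 66.6 CPM in WT. All 3 h libraries of the 3 stimuli lay below all 0 h libraries. The 3 h changes were -1.26, -0.95 and -1.32 (SE 0.10 each). Those at 8 h were -0.37, -0.28 and -0.28 (SE 0.10 each), and each lost its call without 1 or more single libraries, for example KO-1 at 8 h (adjusted p = 0.12, 0.186 and 0.358).

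Its relative Slc1a5, the glutamine exchanger, was called at no time and ranged over 89.8 to 185 CPM. With the line as a block it was called at 8 h of TNF (adjusted p = 0.016, change 0.31) and at 3 h of LPS (adjusted p = 0.0348, change -0.27). Slc1a6, a glutamate transporter, fell late, from 28.6 and 30.96 CPM to 22.5 and 18.6 CPM at 3 h and 10.4 and 9.34 CPM at 8 h of IL-1b, and in WT from 48.03 to 22.4 CPM at 8 h. All 8 h libraries lay below the 0 h libraries of their own line, and the 8 h changes were -1.56, -1.09 and -1.24 (SE 0.12 each).

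Slc38a2, which amino acid shortage is known to induce, went from 394 and 365 CPM to 249.8 and 249 CPM at 3 h of LPS, a fall of -0.40 (SE 0.09). After IL-1b and TNF its 3 h values were -0.06 and 0.03, neither called. Slc43a2, a transporter of large neutral amino acids, went from 10.97 and 7.22 CPM to 2.75 and 3.56 CPM at 3 h of LPS and was back at 6.71 and 9.71 CPM at 8 h. The 3 h change was -1.30 (SE 0.27), with -0.02 and 0.41 after the cytokines, neither called, and in WT it went from 8.24 to 10.3 CPM.

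Slc7a5 and Slc3a2, the light and heavy chain of the main importer of large neutral amino acids, moved little. Slc7a5 ranged over 296 to 530.5 CPM and was called at 8 h of IL-1b alone (-0.28, SE 0.09), a call that ended without KO-2 at 0 h (adjusted p = 0.207) or KO-1 at 8 h (adjusted p = 0.197). Slc3a2 was called at no time and ranged over 241 to 377 CPM, though with the line as a block it was called higher at 0.5, 1 and 3 h of IL-1b (adjusted p = 0.0242, 0.031 and 0.0405). Of 18 listed genes of the amino acid shortage response, 1, 3 and 1 were higher and 4, 3 and 6 lower at 3 h of IL-1b, TNF and LPS, with medians of -0.08, -0.07 and -0.20. Trib3, a pseudokinase of that response, changed by -1.33, -1.65 and -1.43, while Asns, asparagine synthetase, lay at -0.07, -0.10 and -0.12, none called.

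Transporters of metals formed the next group. Zinc leaves the cytosol through the Slc30 proteins and enters it through the Slc39 proteins, iron leaves endosomes through Slc11a2 and the cell through Slc40a1, and copper enters through Slc31a1. Of 24 members, 7, 7 and 10 were higher and 4, 3 and 3 lower at 3 h of IL-1b, TNF and LPS, and 6, 6 and 12 were higher and 3, 4 and 3 lower at 8 h. The medians were 0.01, 0.04 and 0.10 at 3 h and 0.07, 0.12 and 0.23 at 8 h.

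Slc30a1, the zinc exporter of the cell surface (chr1:193730646-193737126), whose promoter is printed above, first rose and then fell. After LPS its level in KO-1 and KO-2 was 9.96 and 11.4 CPM at 0 h, 19.9 and 18.2 CPM at 1 h, 32.7 and 30.9 CPM at 3 h and 5.04 and 4.04 CPM at 8 h. In WT it was 14.3 CPM at 0 h, 26.1 CPM at 3 h and 12.3 CPM at 8 h. The 3 h library was the highest of its line for every stimulus, and the 8 h libraries of p53KO lay below their 0 h libraries. The changes were 0.73, 0.66 and 0.91 (SE 0.15 to 0.16) at 1 h, 1.93, 1.72 and 1.78 (SE 0.14 to 0.15) at 3 h and -0.83, -0.92 and -1.14 (SE 0.19 each) at 8 h. The TNF call at 1 h ended without KO-1 at 0 h (adjusted p = 0.2) or KO-2 at 1 h (adjusted p = 0.0752). The fall at 8 h lost its call without KO-2 at 8 h for IL-1b (adjusted p = 0.0811) and without KO-1 at 8 h for TNF (adjusted p = 0.0705).

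**Figure D3:**
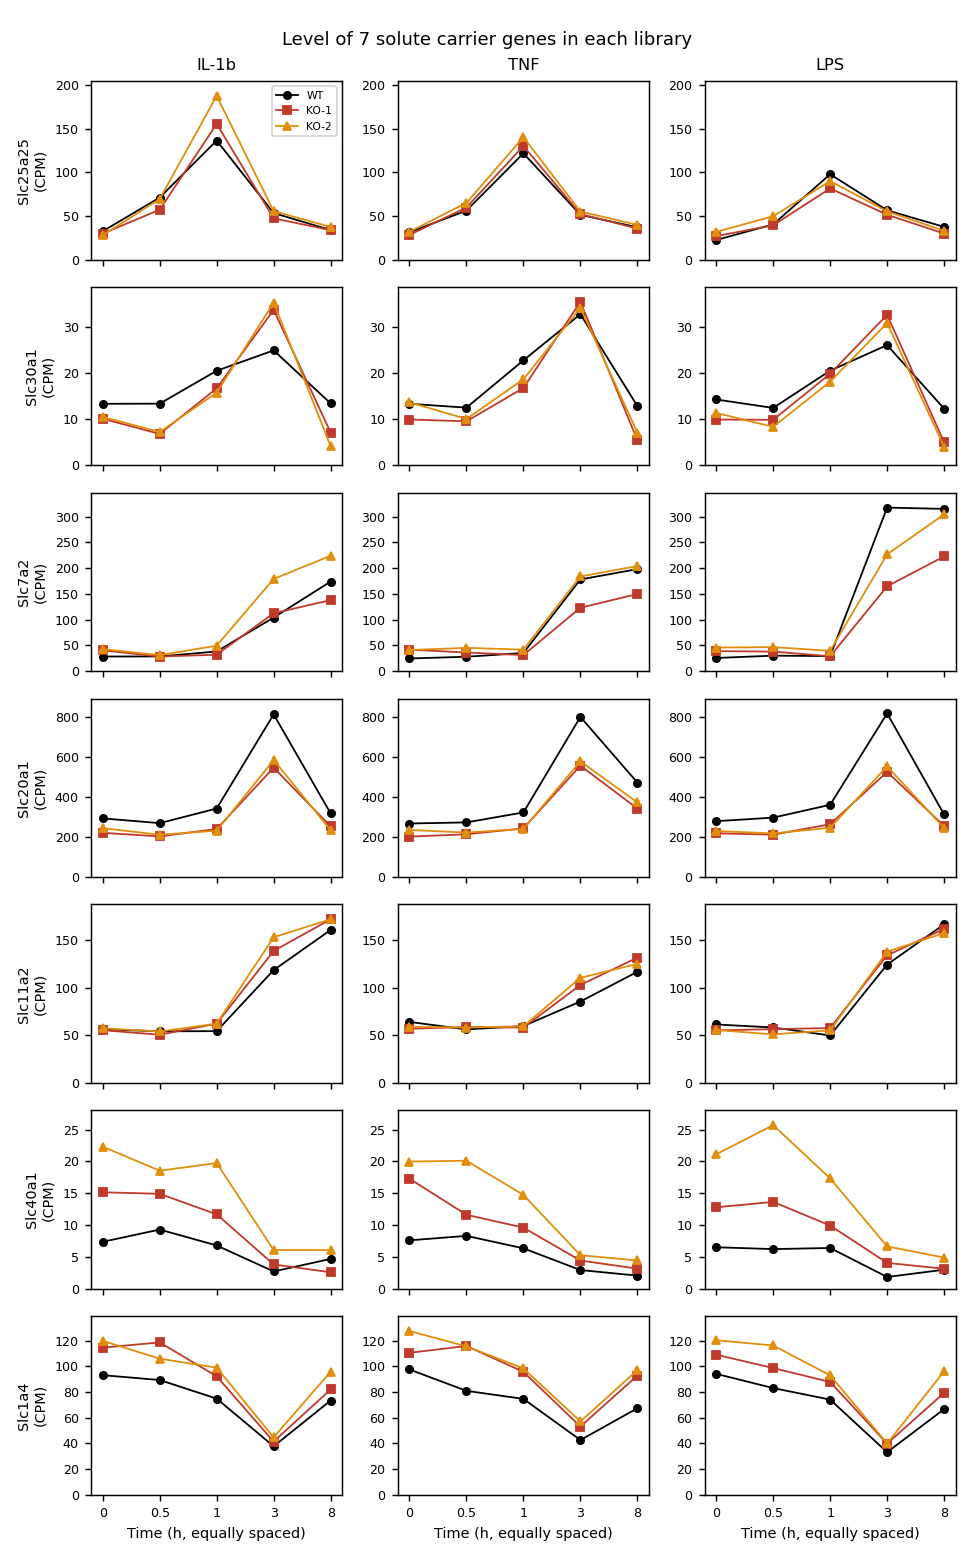
Level in CPM (y axis, from 0) against time (x axis, equally spaced) after IL-1b, TNF and LPS for 7 solute carrier genes, with 1 point per library and lines joining the libraries of WT, KO-1 and KO-2. Slc25a25 was highest at 1 h, Slc30a1 and Slc20a1 at 3 h, Slc7a2 and Slc11a2 were high at 3 and 8 h, Slc40a1 was low at 3 and 8 h, and Slc1a4 was lowest at 3 h.

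The zinc importers moved in both directions. Slc39a10 went from 112 and 107 CPM to 55.3 and 52.1 CPM at 3 h and 129.5 and 130.2 CPM at 8 h of LPS, and in WT from 71.7 to 42.7 and 92.5 CPM. Its changes were -0.66, -0.83 and -0.82 (SE 0.09 each) at 3 h and 0.37, 0.30 and 0.35 (SE 0.08 each) at 8 h, and the TNF call at 8 h ended without KO-2 at 0 h (adjusted p = 0.163) or KO-1 at 8 h (adjusted p = 0.101). Slc39a14, which takes up zinc and iron not bound to transferrin, rose from 66.6 and 59.3 CPM to 89.5 and 101 CPM at 3 h of LPS and went from 97.8 to 198 CPM in WT. Its 3 h changes were 0.77, 0.56 and 0.81 (SE 0.10 to 0.11). Of the 10 Slc39 members 2, 2 and 3 were higher and 2, 2 and 1 lower at 3 h, and Slc39a7, Slc39a8, Slc39a9, Slc39a11 and Slc39a13 were called at no time.

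The iron transporters moved apart. Slc11a2 (chr15:100218329-100255503) went from 55.3 and 57.3 CPM to 138 and 153 CPM at 3 h and 172 and 172 CPM at 8 h of IL-1b, and in WT from 56.4 to 118 and 160.5 CPM. In every line the 3 and 8 h libraries lay above all 0 h libraries. Its changes were 1.55, 1.04 and 1.502 (SE 0.07 each) at 3 h and 1.64, 1.20 and 1.63 (SE 0.07 each) at 8 h of IL-1b, TNF and LPS.

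Slc40a1, ferroportin, the known iron exporter of cells (chr1:45964915-45982439), went from 15.2 and 22.3 CPM to 3.83 and 6.09 CPM at 3 h and 2.59 and 6.08 CPM at 8 h of IL-1b, and in WT from 7.38 to 2.73 and 4.69 CPM. All 3 and 8 h libraries lay below the 0 h library of their own line and stimulus. Its changes were -1.74, -1.78 and -1.45 (SE 0.40 to 0.42) at 3 h and -2.08, -2.32 and -1.97 (SE 0.41 to 0.44) at 8 h. The call at 3 h of LPS ended without KO-2 at 0 h (adjusted p = 0.093) or KO-1 at 3 h (adjusted p = 0.0784).

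Slc25a37 was at 40.1 and 40.7 CPM at 0 h of LPS, 30.8 and 28.3 CPM at 1 h and 82.96 and 83.4 CPM at 3 h, and it rose by 0.85, 1.17 and 1.25 (SE 0.09 each) at 3 h of IL-1b, TNF and LPS. Of 16 listed genes that handle iron, copper and zinc outside the transporters, 8, 5 and 7 were higher and 0, 1 and 0 lower at 3 h (medians 0.27, 0.14 and 0.10). The metallothionein Mt2, which binds zinc and copper, rose by 4.97, 4.30 and 5.25, and Mt1 by 3.17, 2.45 and 3.18. Tfrc, the transferrin receptor, rose by 0.80, 0.67 and 0.80, and Fth1, the heavy chain of the iron store ferritin, by 0.49, 0.37 and 0.70.

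Slc11a1, the iron and manganese transporter of macrophage phagosomes, went from 3.76 and 3.07 CPM to 6.40 and 5.48 CPM at 8 h of LPS, a rise of 0.90 (SE 0.21), and from 4.35 to 10.8 CPM in WT. At 8 h of LPS 5 of the 10 macrophage markers were higher and 2 lower, Adgre1 by 1.29, Ptprc by 0.82 and Cd68 by -0.77, and their part in this rise was not tested. The copper importer Slc31a1 kept to 87.4 to 119 CPM over all 45 libraries, and its calls at 8 h of IL-1b (0.20) and LPS (0.20) ended without single libraries (adjusted p up to 0.332 and 0.107).

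Of 12 transporters of sugars and sugar phosphates, 1, 2 and 2 were higher and 4, 4 and 6 lower at 3 h of IL-1b, TNF and LPS, with medians of -0.27, -0.31 and -0.38. Slc2a1, the widely expressed glucose importer (chr4:118781316-118809935), was among the higher ones after every stimulus. It went from 172 and 173 CPM to 258 and 276 CPM at 3 h and 380.3 and 331 CPM at 8 h of IL-1b, and in WT from 180.0 to 287 and 396 CPM. The changes were 0.82, 0.68 and 0.88 (SE 0.08 each) at 3 h and 1.08, 0.79 and 0.94 (SE 0.08 each) at 8 h.

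Slc2a6, a hexose transporter of lysosomes (chr2:26876883-26883518), whose promoter is printed above, went from 5.59 and 6.86 CPM to 14.5 and 16.4 CPM at 3 h and 17.3 and 25.1 CPM at 8 h of LPS, and in WT from 4.69 to 11.5 and 12.1 CPM. It rose by 1.51 (SE 0.22) and 1.87 (SE 0.21), and at 8 h of TNF by 1.12 (SE 0.23). After IL-1b it lay at -0.06 and 0.31, neither called. Slc2a4, the insulin-regulated glucose transporter, was low in all libraries and went from 7.40 and 8.07 CPM to 1.86 and 2.44 CPM at 3 h of IL-1b in p53KO, with 0 to 0.943 CPM in WT. Its 3 h values were -1.66, -1.65 and -1.49 (SE 0.27 to 0.30), given as a description, since it became a member through p53KO libraries at 0 to 1 h.

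Slc2a3, a glucose transporter of high affinity, went from 34.8 and 40.3 CPM to 21.7 and 24.9 CPM at 3 h of IL-1b and was back at 36.5 and 40.5 CPM at 8 h. The 3 h values were -0.50, -0.57 and -0.43 (SE 0.18 to 0.19): the LPS value was not called (adjusted p = 0.0624, and 0.00269 with the line as a block), and the IL-1b and TNF calls ended without KO-2 at 0 h (adjusted p = 0.169 and 0.142) or KO-1 at 3 h (adjusted p = 0.204 and 0.156). Of 16 listed glycolysis genes, 4, 2 and 2 were higher and 3, 4 and 4 lower at 3 h of IL-1b, TNF and LPS, and 14, 2 and 9 were higher and 1 lower after each at 8 h (medians 0.32, 0.01 and 0.28). Hk2, a hexokinase that traps glucose in the cell, rose by 1.39, 1.04 and 1.58 at 3 h. Txnip and Arrdc4, arrestins known to limit glucose uptake, fell at 3 h and changed by -1.04, -1.03 and -0.9996 and -1.17, -0.92 and -0.97. Both come from a list of 11 transporter partners without an Slc symbol. Of these 11 genes, 4, 3 and 5 were higher and 3, 2 and 2 lower at 3 h of IL-1b, TNF and LPS. At 8 h 3, 3 and 9 were higher and 1, 2 and 1 lower.

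Family Slc16 holds carriers of lactate, pyruvate and other small molecules. At 3 h 6, 5 and 5 of its 8 members were higher and 1, 0 and 0 lower after IL-1b, TNF and LPS, with medians of 0.70, 0.62 and 0.64, and at 8 h 5 were higher and 1 lower after each, with medians of 0.72, 0.47 and 0.58. Slc16a9 is among the higher ones at 3 h of each stimulus, and Slc16a4 is the lower one at 3 h of IL-1b and at 8 h. Slc16a9 reached 5 CPM in no 0 h library and Slc16a4 in none at 3 or 8 h. Their share of these counts and medians therefore follows in part from how members were chosen. The lactate carrier Slc16a1 went from 74.2 and 83.8 CPM to 117 and 140.2 CPM at 3 h of IL-1b, with 3 h changes of 0.89, 0.60 and 0.87 (SE 0.11 each). Slc16a3, the lactate exporter of glycolytic cells, moved later: it stood at 170.1 and 183 CPM at 0 h, 158 and 159 CPM at 3 h and 339 and 314 CPM at 8 h of IL-1b, and rose at 8 h by 0.92, 0.44 and 0.65 (SE 0.08 each).

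Slc16a9 was rare, with 1.93 and 1.53 CPM at 0 h and 2.87 and 6.32 CPM at 3 h of LPS and 0.687 and 6.31 CPM in WT. It became a member through 2 libraries at 3 h of LPS, KO-2 and WT, so its LPS value of 1.62 is a description. At 3 h of IL-1b and TNF it rose by 1.45 (SE 0.38) and 1.67 (SE 0.53), and both lost their call without KO-2 at 3 h (adjusted p = 0.0726 and 0.118) or KO-1 at 0 h (adjusted p = 0.079 and 0.0913). Slc16a4 lay lower later, at 5.73 and 6.57 CPM at 0 h and 1.19 and 2.03 CPM at 8 h of IL-1b, with 8 h values of -1.90, -1.99 and -0.87 (SE 0.31 to 0.35), a description, since it reached 5 CPM only at 0 to 1 h.

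Of 22 transporters of phosphate and other inorganic ions, 6, 3 and 6 were higher and 6, 5 and 6 lower at 3 h of IL-1b, TNF and LPS. Slc20a1, a phosphate importer (chr2:129024500-129037352), went from 219.6 and 231 CPM to 527 and 555 CPM at 3 h and back to 256 and 246 CPM at 8 h of LPS, and in WT from 280.3 to 820.1 and 314 CPM. All 3 h libraries lay above all others, and the 3 h changes were 1.47, 1.54 and 1.47 (SE 0.08 each). At 8 h of TNF it was still at 344 and 374 CPM, a rise of 0.76 (SE 0.08). Slc4a7 rose at 3 h by 0.83, 0.92 and 0.95 (SE 0.10 each), and Slc9a9, a sodium proton exchanger of endosomes, fell at 8 h, from 6.71 and 8.13 CPM to 2.83 and 2.21 CPM after LPS, by -1.15, -1.33 and -1.46 (SE 0.22 to 0.23).

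Of the 33 mitochondrial carriers of Slc25, 7, 8 and 7 were higher and 8, 3 and 11 lower at 3 h, with medians of -0.03, -0.07 and -0.06. Slc25a22, a glutamate carrier, went from 38.4 and 31.8 CPM to 52.3 and 51.1 CPM at 3 h and 57.4 and 59.1 CPM at 8 h of LPS in p53KO, and from 30.6 to 31.4 and 37.6 CPM in WT. The changes were 0.77 (SE 0.09) and 0.84 (SE 0.09). Slc25a42, a carrier of coenzyme A, was called lower at 3 h of IL-1b (-1.13, SE 0.29) and LPS (-1.57, SE 0.36), where it went from 3.35 and 3.16 CPM to 1.20 and 0.689 CPM. It became a member only through 3 WT libraries, 2 of them at 3 or 8 h. Its level was low, with 1.20 to 4.46 CPM in KO-1, 0.689 to 4.89 CPM in KO-2 and 1.61 to 5.81 CPM in WT. Its values are given as a description.

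Per kb of exon the highest mean levels of all members were those of Slc25a5 with 212 CPM per kb and Slc25a4 with 195 CPM per kb, the exchangers of ADP and ATP, followed by Slc7a5 with 115, Slc3a2 with 84.1 and the phosphate carrier Slc25a3 with 83.7 CPM per kb. Slc25a4 and Slc25a5 are close paralogs, so reads may have been split between them and their values are uncertain. Slc25a4 ranged over 357 to 537 CPM, Slc25a5 over 283 to 477 CPM and Slc25a3 over 393 to 587 CPM. Slc25a5 was called higher at 3 h of each stimulus, by 0.39, 0.30 and 0.38 (SE 0.09 each), and Slc25a3 likewise, by 0.22, 0.28 and 0.20 (SE 0.07 each). The TNF call of Slc25a5 ended without KO-1 at 0 h (adjusted p = 0.0699) or at 3 h (adjusted p = 0.0993). The LPS call of Slc25a3 ended without any 1 of the 4 libraries compared (adjusted p = 0.0557 to 0.0794 in 4 such fits), and its IL-1b call without KO-1 at 0 h (adjusted p = 0.0696).

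Of the 27 carriers of vitamins, nucleosides, peptides, lipids and organic ions, 9, 5 and 5 were higher and 7, 8 and 7 lower at 3 h. Slc15a3, a histidine and peptide transporter of lysosomes (chr19:10914217-10933852), went from 12.7 and 10.1 CPM to 29.2 and 24.9 CPM at 3 h and 56.9 and 53.05 CPM at 8 h of LPS, and in WT from 6.98 to 23.1 and 40.2 CPM. It rose by 1.46 (SE 0.16) and 2.37 (SE 0.15). After the cytokines it rose at 3 h by 0.80 (SE 0.17) and 0.73 (SE 0.18), and at 8 h it lay at 0.42 and 0.47 (adjusted p = 0.0807 and 0.0514, and 0.00982 and 0.00783 with the line as a block). Slc29a1, an equilibrative nucleoside transporter, went from 59.5 and 64.8 CPM to 112 and 134 CPM at 8 h of LPS, with 8 h changes of 0.70, 0.68 and 1.09 (SE 0.13 each). Slc46a1, a folate transporter, fell at 3 h of TNF by -1.01 (SE 0.18), from 9.17 and 11.3 CPM to 4.33 and 4.76 CPM.

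The change after LPS was compared with the mean change after both cytokines as a signed difference. Higher thus means a more positive change after LPS and lower a more negative one, whichever change was larger in size. At 3 h 4 members were called (2.13% of all genes), 2 higher after LPS (1.82%) and 2 lower (0.31%). At 8 h 4 were called (4.56%), all higher (3.85%) and none lower (0.708%), or 9 with the line as a block. Slc15a3 had the largest difference at 8 h, 1.93 (SE 0.20) (adjusted p = 6.97e-08), and at 3 h it lay at 0.69 (adjusted p = 0.0943, and 0.00239 with the line as a block). Slc24a3, a sodium, calcium and potassium exchanger, went from 16.97 and 22.1 CPM to 32.2 and 27.1 CPM at 8 h of LPS and from 18.4 and 21.7 CPM to 12.2 and 13.7 CPM at 8 h of TNF. Its difference was 1.11 (SE 0.21) (adjusted p = 0.000963), while WT went from 26.7 to 20.2 CPM after LPS. Neither of these 8 h differences lost its call without any single p53KO library.

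The other differences were less stable. Slc2a6 stood at 1.20 (SE 0.29) and 1.15 (SE 0.27), but without KO-1 at 0 h of LPS the adjusted p was 0.144 and 0.0907. Slc25a22 stood at 0.55 (SE 0.11) and 0.49 (SE 0.11), and without KO-2 at 0 h of LPS at adjusted p = 0.119 and 0.124. At 3 h Slc43a2 was lower by -1.499 (SE 0.32), which ended without KO-1 at 0 h of LPS (adjusted p = 0.0987). Slc37a2, a sugar phosphate exchanger, was lower by -1.13 (SE 0.30), with 6.61 and 7.86 CPM at 0 h and 2.15 and 3.67 CPM at 3 h of LPS, and its adjusted p without single libraries was 0.0537 to 0.475 in 9 such fits. Among the macrophage markers Adgre1, Fcgr1 and Spi1 were higher by 1.20, 2.21 and 1.00 in the same 8 h comparison and 7 of 10 were not called, and their part in these results was not tested.

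**Figure D4:**
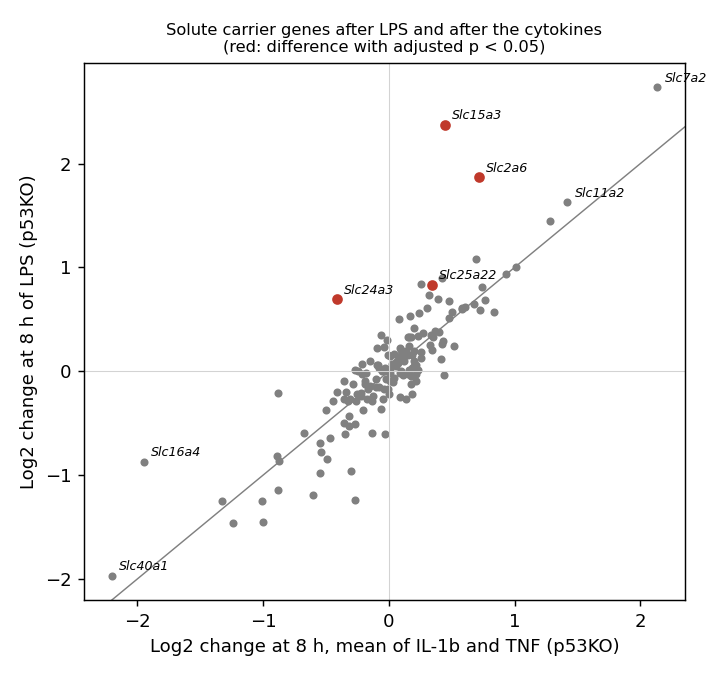
Log2 change at 8 h of LPS (y axis) against the mean log2 change at 8 h of IL-1b and TNF (x axis) in p53KO, 1 point per solute carrier gene, with the line of equal change. The 4 red points, Slc15a3, Slc2a6, Slc24a3 and Slc25a22, lie above the line with an adjusted p under 0.05.

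IL-1b and TNF differed in few members, 2 at 3 h (0.116% of all genes), both higher after IL-1b (0.101%) and none lower (0.0144%), and 3 at 8 h (0.505%), 2 higher (0.238%) and 1 lower (0.267%). Slc20a1 was lower after IL-1b than after TNF at 8 h, by -0.66 (SE 0.11), with 254 and 235 CPM beside 344 and 374 CPM, and this call held without any single library. Slc11a2 was higher after IL-1b by 0.51 (SE 0.10) at 3 h and 0.44 (SE 0.10) at 8 h, and Slc4a2, a chloride bicarbonate exchanger, by 0.59 (SE 0.12) and 0.55 (SE 0.12). At 8 h Slc4a2 was at 179 and 189 CPM after IL-1b and 129 and 131 CPM after TNF. Without single libraries the adjusted p of Slc11a2 was 0.109 to 0.406 in 6 such fits at 3 h and 0.0812 to 0.253 in 8 such fits at 8 h, and that of Slc4a2 was 0.0513 to 0.356 in 8 such fits and 0.0786 to 0.226 in 6 such fits.

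Most members called in p53KO had a WT value of the same sign: 74 of 81 at 3 h of IL-1b, 61 of 65 at 3 h of TNF and 78 of 84 at 3 h of LPS, and 46 of 50, 57 of 62 and 71 of 76 at 8 h. These are 91.4, 93.8 and 92.9% at 3 h and 92, 91.9 and 93.4% at 8 h, beside 85.3, 89.2 and 87% and 88.9, 90.1 and 90.8% of all genes called. The difference between the changes of p53KO and WT, as the mean over the 3 stimuli, was called for 16 members at 3 h (9.98% of all genes), 12 higher (6.64%) and 4 lower (3.34%) in p53KO. At 8 h it was called for 12 (4.01%), 6 higher (2.59%) and 6 lower (1.42%). WT had 1 library per group and is treated as a single line, so the genotype and that line cannot be told apart. The WT groups were taken to vary like the p53KO groups, so these SEs and calls hold no measured spread of WT. At 3 h of IL-1b the change of all genes ran with exon length in WT (Spearman's rho -0.40), beside -0.16 in KO-1 and 0.01 in KO-2. At 3 h of TNF and LPS the WT values were -0.04 and -0.10. The part of this trend in the differences between p53KO and WT was not tested. Slc30a1 differed at both times, by 0.65 (SE 0.15) at 3 h and -0.89 (SE 0.17) at 8 h. Its 8 h level in WT (13.4, 12.9 and 12.3 CPM after IL-1b, TNF and LPS) was near that at 0 h (13.4, 13.4 and 14.3 CPM).

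At 3 h the smallest adjusted p among the members was that of Slc25a24, a paralog of Slc25a25, with a difference of 0.51 (SE 0.08). It went from 184 to 115 CPM in WT and from 149.6 and 155 CPM to 143 and 133 CPM in p53KO at 3 h of LPS. Slc30a4, another zinc exporter, differed by 0.44 (SE 0.07), Slc7a1 by 0.51 (SE 0.09) and Slc11a2 by 0.39 (SE 0.07). At 8 h Slc19a2, a thiamine importer, differed by -0.47 (SE 0.09): it went from 62.1 to 91.9 CPM in WT and from 19.03 and 19.8 CPM to 19.8 and 22.9 CPM in p53KO after IL-1b. Slc29a1 differed by 0.58 (SE 0.13) at 8 h, and this call held without any single p53KO library.

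The levels of the lines, each summed over its 15 libraries, were compared in 12918 genes. Of the members 77 were called (40.4% of all genes and 42.3% of genes at the level), 35 higher (21.1% of all genes) and 42 lower (19.2%) in p53KO. The amino acid transporters had 11 of 30 higher and 5 lower, the metal transporters 3 of 24 higher and 10 lower, and the carriers of vitamins, nucleosides, peptides, lipids and organic ions 4 of 27 higher and 10 lower, with medians of 0.10, -0.12 and -0.09. Without the 7 members that met the rule through 1 genotype alone, likewise chosen after seeing the data, 72 of 155 were called, 32 higher and 40 lower. The fit sets 1 WT total against 2 p53KO totals and has 1 residual degree of freedom, beside 6.36 prior degrees of freedom estimated over all genes. Each SE thus rests more on the spread shared over genes than on the gene's own gap between KO-1 and KO-2. It also assumes that WT varies alike, and no edgeR p is given for single genes. With the 0 h libraries alone fewer members were called, but the share of all genes called in that fit was not computed.

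Slc19a2 was lower in p53KO, with 53.3 to 91.9 CPM (median 62.1) in WT, 15.7 to 20.98 CPM (median 19.03) in KO-1 and 15.1 to 22.9 CPM (median 18.6) in KO-2, and no p53KO library reached a WT library. The difference was -1.85 (SE 0.05). Slc2a4, a member only through p53KO libraries, is given as a description, with 0 to 0.943 CPM (median 0.525) in WT, 1.86 to 7.99 CPM (median 5.10) in KO-1 and 1.95 to 8.07 CPM (median 5.91) in KO-2, a difference of 3.20. Slc2a3 was at 5.57 to 10.97 CPM (median 8.07) in WT, 20.5 to 36.5 CPM (median 33.1) in KO-1 and 24.6 to 44.3 CPM (median 38.9) in KO-2, higher by 1.89 (SE 0.12). The ranges of WT and p53KO libraries were apart for these 3 genes, for Slc25a23 and Slc25a3, and for Slc7a3, a cationic amino acid transporter named after its values were seen.

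Slc25a23, an exchanger of ATP-magnesium and phosphate, was higher by 1.71 (SE 0.11), with a median of 4.485 CPM in WT and 15.73 and 18.23 CPM in KO-1 and KO-2. Slc40a1 was higher by 1.08 (SE 0.25), with 1.86 to 9.30 CPM in WT, 2.59 to 17.3 CPM in KO-1 and 4.45 to 25.7 CPM in KO-2, ranges that overlapped, and the DESeq2 test did not call it (adjusted p = 0.156). Among the lower ones were Slc39a14 (-0.82, SE 0.05) and Slc1a6 (-0.80, SE 0.05), and Slc5a7, the choline importer and a member only through WT libraries, lay at -0.87. Their ranges overlapped between the genotypes. Of the 18 amino acid response genes 12 were higher and 2 lower in p53KO, with Trib3 at 0.79 and Asns at 0.19.

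**Figure D5:**
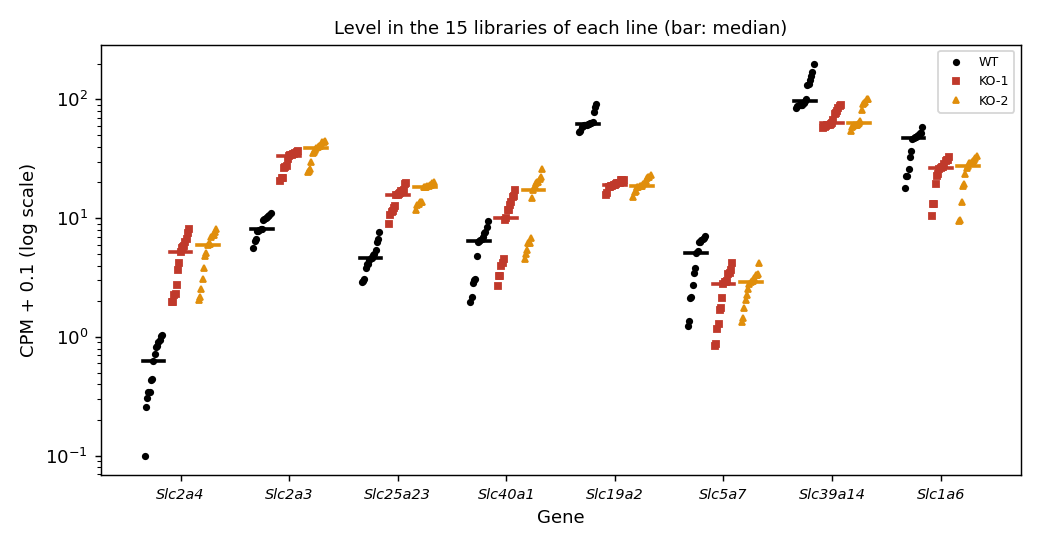
Level (CPM + 0.1, log axis) of 8 solute carrier genes with the largest called differences between the lines, with 1 point per library for the 15 libraries of WT, KO-1 and KO-2, sorted by level within a line, and a bar at the median. The points of WT and of both p53KO lines do not overlap for Slc2a4, Slc2a3, Slc25a23 and Slc19a2.

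At no time after any stimulus were 33 of the 162 members called (20.4%, beside 26.6% of all genes). Besides Slc1a5, Slc3a2 and the 5 zinc importers given above, they included the zinc exporters Slc30a6 and Slc30a9, the fatty acid transporters Slc27a1 and Slc27a4, the choline transporter Slc44a1 and 7 carriers of Slc25. A test on simulated data modelled 3 h of LPS against 0 h. Of the genes changed 2-fold 85 of 100 were called, and of those changed 1.5-fold 61 of 100. Few of its 13851 genes were changed and all shared 1 spread, so these shares do not measure recovery among the members. Smaller changes of these members may still have passed uncalled.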

How the data were processed

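RNA-seq of poly(A) RNA (stranded, paired-end) was deposited as raw counts per Ensembl gene; STAR, featureCounts, DESeq and build mm9 appear in the submitters' processing notes, while versions, annotation release and strand setting are not given in the sources used here. From these deposited counts, 5 rows that name no gene (24.65% of counts) were left out and CPM was computed per library. Genes at 1 CPM in at least 2 libraries were fitted with edgeR 4.0.16 (R 4.3.3, TMM, quasi-likelihood test, 30 group means), with Benjamini-Hochberg adjustment per contrast; genotype used counts summed per line. Alternatives were DESeq2 1.42.0, no filter, p53KO libraries alone, pooled 0 h libraries, the line as a block, and leaving out libraries. The titles name KO-1 and KO-2 in every group, so libraries of the same name were treated as 1 line. Deviations of these same-line libraries had a median correlation of 0.191 over 105 pairs of groups (-0.169 to 0.504, 73 over 0.1). The script was tested on simulated data. Named members are the largest called changes (3 each way per stimulus at 3 and 8 h), the smallest adjusted p in the other comparisons, the highest levels per kb and a list of 25 genes; results of some members are not reported here. Members and lists were chosen with earlier results of these data known. No batch is given. Low-level members are limited by counting error.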

Additional observations from a re-analysis of the deposited data

Results flagged for a closer look

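The results given here were picked out because a test of the difference between 2 changes called it, in edgeR's quasi-likelihood fit with Benjamini-Hochberg adjustment; values are differences of log2 changes.

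For LPS minus the mean of the cytokines, the differences at 3 h were -1.499 for Slc43a2, 1.20 for Slc2a6, 0.55 for Slc25a22 and -1.13 for Slc37a2. At 8 h they were 1.93 for Slc15a3, 1.15 for Slc2a6, 1.11 for Slc24a3 and 0.49 for Slc25a22.

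For IL-1b minus TNF, Slc11a2 differed by 0.51 at 3 h and 0.44 at 8 h, Slc4a2 by 0.59 and 0.55, and Slc20a1 by -0.66 at 8 h.

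For the change in p53KO minus that in WT, the 3 h differences among the named members were 0.65 for Slc30a1, 0.56 for the myo-inositol importer Slc5a3, 0.51 for Slc7a1, 0.51 for Slc25a24, 0.44 for Slc30a4, 0.39 for Slc11a2, 0.35 for Slc38a2, 0.27 for Slc6a6 and -0.80 for Slc43a2. Slc5a3 went from 46.8 and 32.2 CPM to 36.5 and 41.1 CPM in p53KO and from 39.6 to 26.3 CPM in WT at 3 h of TNF. The Slc43a2 and Slc6a6 calls ended without KO-1 at 3 h of LPS (adjusted p = 0.0509 and 0.0519).

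At 8 h they were 0.64 for Slc24a3, 0.58 for Slc29a1, 0.37 for Slc25a22, 0.33 for Slc7a5, 0.31 for Slc30a4, -0.47 for Slc19a2, -0.60 for Slc46a1 and -0.89 for Slc30a1. Without single libraries the adjusted p was 0.0586 to 0.0933 in 8 such fits for Slc24a3, 0.05 to 0.0816 in 7 such fits for Slc46a1, 0.0517 to 0.0623 in 6 such fits for Slc7a5 and 0.0513 to 0.0553 in 3 such fits for Slc25a22. WT had 1 library per group and was taken to vary like the p53KO groups, and no WT library could be left out. The part of the trend with exon length in WT at 3 h of IL-1b, given above, was not tested.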

How the results depend on the processing

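No value reversed under any alternative run. Of 252 calls of named members, 168 held without each of the 30 p53KO libraries in turn and 84 ended without at least 1; the DESeq2 test lost 39, no filter on low counts 17, the 0 h libraries alone 9 of the 28 genotype calls, pooled 0 h libraries 2, p53KO libraries alone 2 and DESeq2 size factors 1. The line (KO-1 or KO-2) as a replicate block lost none of 207 calls and added 34, and beside the counts here and the values in the report it changed no other count of members by over 1.5 times. At 0.5 h of IL-1b the count of 5 members became 9 with no filter, 18 with the replicate block, 10 with p53KO libraries alone and 26 with pooled 0 h libraries. At 1 h of IL-1b 6 became 11 with the block and 15 with pooled 0 h libraries, and at 1 h of TNF 10 and 17. At 0.5 h of TNF 1 became 2 with pooled 0 h libraries, and at 1 h of LPS 7 became 15, or 4 by the DESeq2 test. For LPS minus cytokines the DESeq2 test gave 1 in place of 4 at 3 h, and at 8 h no filter and the block each gave 9 in place of 4. For IL-1b minus TNF at 3 h the DESeq2 test and no filter each gave 1 in place of 2. For the genotype the 0 h libraries alone gave 51 in place of 77. Without single libraries the counts ran over 2 to 7 at 0.5 h, 2 to 4 at 1 h, 58 to 69 at 3 h and 35 to 43 at 8 h of IL-1b; 1 to 1, 1 to 4, 46 to 57 and 31 to 52 of TNF; and 0 to 1, 2 to 4, 58 to 70 and 55 to 62 of LPS. For LPS minus cytokines they ran over 1 to 4 at 3 h and 3 to 6 at 8 h, for IL-1b minus TNF 0 to 1 and 1 to 2, and for p53KO minus WT changes 12 to 18 and 8 to 13. The cause of these moves was not tested. Each p53KO group had 2 libraries, and WT libraries could not be left out.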
